A study of Drosophila melanogaster with 6 samples.

Results

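Muscle genes were followed in whole Drosophila melanogaster embryos as 2 classes, early genes of muscle fate, myoblast fusion and myotube targeting, and late genes of the sarcomere. The set was given as 40 gene names. 31 of them had a probe set naming that gene alone, among 11981 genes so represented on the array, and a gene with several such probe sets was represented by the brightest over the 6 arrays. 7 of 10 early genes and 24 of 29 late genes were measured in this way. Mef2, how, mbc, Mhc, Act57B, wupA, Tm1 and TpnC47D were not analysed here, the name "if-like" matched no gene in the RefSeq table, and Unc-89 was found under its current symbol Obsc.

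The wild type group was Oregon R, with 3 samples, and the other group was sage mutant, with 3 samples matched to it in age. All embryos spanned stages 11 to 16, developed at 25 degrees Celsius and went through a COPAS flow sorter before RNA extraction. sage encodes a basic helix-loop-helix factor active in the embryo's salivary gland, and the study looked for the genes it controls. The sage allele, its genetic background and what the sorting selected are not given in the sources used here. Each sample was 1 Affymetrix 3′ expression array with log2 RMA signals, so a difference of 1 is a 2-fold difference. In RNA from whole embryos, fewer muscle cells and less RNA per muscle cell cannot be told apart.

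In the Drosophila embryo, twi and then the MyoD relative nau and other regulators set muscle fate. Founder cells and fusion-competent myoblasts then recognise each other through immunoglobulin-family receptors and fuse into myotubes, which reach their tendon cells before the sarcomere is built. The sarcomere slides myosin thick filaments along actin thin filaments anchored at Z-discs, with elastic titin-like proteins between them. Fate and fusion genes therefore act before most sarcomere genes reach their full level, which is why the balance of the classes was used here as a sign of embryo age. The late class also held fln, TpnC4, Act88F and Act79B, which are known from adult muscle. They count in its medians, calls and balance, although they are not markers of embryo age.

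Wild type replicate 2 was the array least like its group, with which it correlated at 0.977 on average across probe sets, against 0.985 to 0.993 for the other arrays. The 5′ signal of control transcripts was lower relative to their 3′ signal on the mutant arrays. The control probe sets covered actin, eIF-4a and GAPDH, with actin and GAPDH covered repeatedly. Over 5 pairs of control probe sets, the 5′ signal minus the 3′ signal averaged −1.84 ± 0.08 for wild type and −3.68 ± 0.61 for the mutants (SD, n = 3 each), and it was lowest, at −4.35, in mutant replicate 1. This difference between the groups lies under every comparison here, and its part in the results was not tested beyond a fit that includes it as a term. The number of arrays limits the precision, and detection above background was not assessed.

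No early gene passed the test, while 3 of 24 late genes were higher in the mutants and none was lower. The background was 2.10% of 18769 probe sets called higher and 1.93% called lower, with limma at a Benjamini-Hochberg adjusted p under 0.05. The 3 were Mp20, Actn and TpnC4. With the replicate number as a block Mp20 alone was called, beside 1.84% of all probe sets called higher. At an unadjusted p under 0.05, 9 late genes stood higher and none lower, against 9.25% and 9.44% of all probe sets, and no early gene stood on either side. The median log2 change, mutant minus wild type, was 0.49 over the late genes and 0.00 over the early genes, beside −0.03 over all probe sets. 21 of 24 late genes and 4 of 7 early genes had a log2 change above 0, against 43.4% of all probe sets. Without wild type replicate 2 the late median was 0.23 and the early median 0.07, and 18 late genes were above 0. With the control 5′ to 3′ difference as a term in the fit, limma called 0 probe sets, with 1613 at an unadjusted p under 0.05. The medians were then 0.77 (late) and −0.62 (early). The values of that term did not overlap between the groups, so this fit can hardly tell the term and the group apart. Its SEs were wider, at 0.27 in place of 0.09 for Actn.

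**Figure D1:**
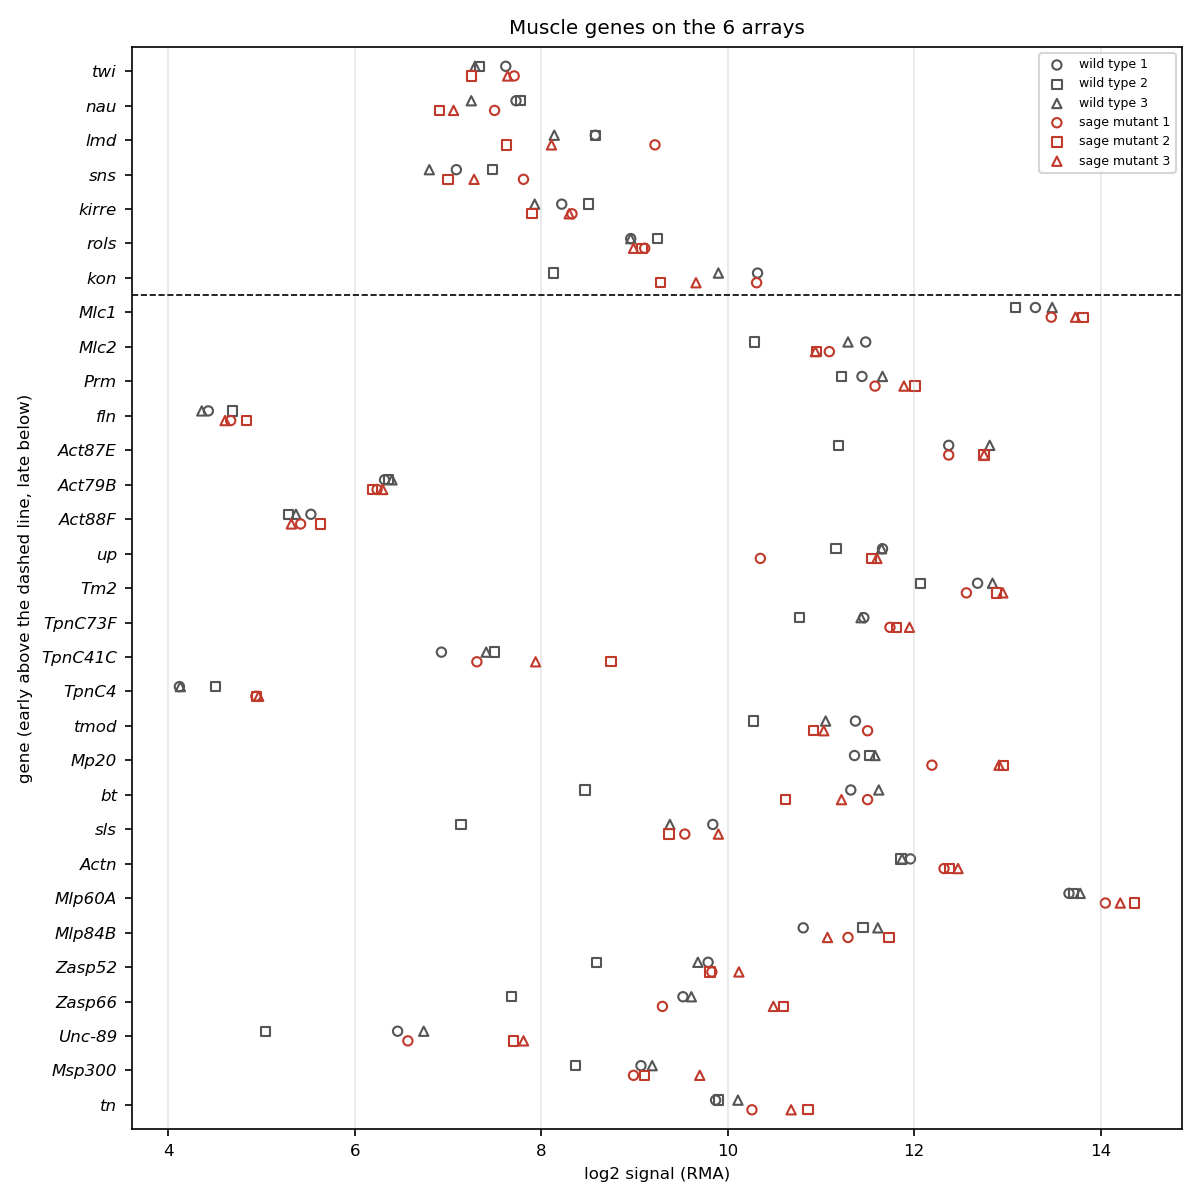
Log2 RMA signal of each of the 31 measured muscle genes on each array, with wild type in grey and sage mutant in red, 1 symbol per array. Early genes stand above the dashed line and late genes below it. Wild type 2 lies far below the other wild type arrays for bt (8.47) and sls (7.14), and the mutant arrays lie above all wild type arrays for Mp20 (12.19 to 12.96).

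Among the fate genes, twi, which specifies the mesoderm, had signals of 7.62, 7.34 and 7.29 in wild type, in the order of the replicate numbers used throughout, and 7.71, 7.25 and 7.64 in the mutants. The groups overlapped, and the log2 change was 0.11 (SE 0.16) with a limma adjusted p = 0.791. nau, the fly member of the MyoD family, had 7.73, 7.78 and 7.25 in wild type and 7.50, 6.91 and 7.06 in the mutants. Its mutant signal was the lower one in each of the 3 pairs of equal replicate number, but its log2 change of −0.43 (SE 0.21) did not pass (limma adjusted p = 0.337). lmd, a zinc finger factor of fusion-competent myoblasts, had 8.58, 8.58 and 8.14 in wild type against 9.22, 7.63 and 8.11 in the mutants. Mutant replicate 1 was thus the highest array for lmd and mutant replicate 2 the lowest, and the log2 change was −0.11 (SE 0.39, limma adjusted p = 0.926).

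Among the fusion genes, sns encodes the receptor of fusion-competent myoblasts and kirre its partner on founder cells. sns had 7.09, 7.48 and 6.80 in wild type and 7.81, 7.00 and 7.28 in the mutants (log2 change 0.24, SE 0.25, limma adjusted p = 0.709). kirre had signals between 7.90 and 8.51 on all arrays, and the log2 change was −0.04 (SE 0.19) with a limma adjusted p = 0.946. rols, a scaffold protein of founder cells, varied least among the early genes, with group means of 9.06 ± 0.17 and 9.06 ± 0.07 (SD, n = 3 each). For sns, kirre and rols, wild type replicate 2 was the highest wild type array, which is the opposite of its place among many late genes.

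kon encodes a transmembrane protein that guides myotubes to their tendon cells, and it differed from the other early genes in its spread. Its signals were 10.32, 8.13 and 9.90 in wild type and 10.31, 9.28 and 9.66 in the mutants. Replicate 2 was the lowest array of each group. The log2 change was 0.30 (SE 0.58, limma adjusted p = 0.854) with all arrays and −0.36 without wild type replicate 2.

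Of the late genes, Mp20 had the clearest difference. It encodes a calponin-like actin-binding protein of muscle. Its signals were 11.36, 11.52 and 11.58 in wild type and 12.19, 12.96 and 12.91 in the mutants, so that every mutant array lay above every wild type array. From a mean of 11.49 ± 0.11 in wild type to 12.69 ± 0.43 in the mutants (SD, n = 3 each), Mp20 rose 2.30-fold (log2 change 1.20, SE 0.22, limma adjusted p = 0.0371). It passed with the replicate number as a block (limma adjusted p = 0.0349) and without wild type replicate 2 (0.0457). Leaving out replicate 1 or 3 of the wild type, or replicate 2 or 3 of the mutants, ended the call, at limma adjusted p-values between 0.0866 and 0.163. It held under 11 of 16 alternatives.

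Actn encodes α-actinin, which crosslinks thin filaments at the Z-disc, and it was the most tightly measured of the 3. Its signals were 11.96, 11.86 and 11.87 in wild type and 12.32, 12.38 and 12.47 in the mutants. Actn rose 1.41-fold (log2 change 0.49, SE 0.09, limma adjusted p = 0.0389), with no overlap between groups. The call was narrow. It was lost with the replicate block (limma adjusted p = 0.0752), after median centring (0.0602), and without any 1 of the 6 arrays (0.0534 to 0.161), and it held under 3 of 16 alternatives.

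TpnC4 encodes a troponin C, the calcium sensor of the thin filament, known from adult flight muscle. Its signals were 4.12, 4.51 and 4.13 in wild type and 4.94, 4.95 and 4.97 in the mutants. The groups did not overlap, and TpnC4 rose 1.63-fold (log2 change 0.70, SE 0.13, limma adjusted p = 0.0383). The probe set was dim, since only 18.9% of probe sets had a lower mean, so this fold is not exact. Its limma adjusted p was 0.0608 with the replicate block, 0.0087 without wild type replicate 2, and between 0.0704 and 0.166 without any other single array. The call held under 6 of the 14 alternatives that kept so dim a probe set.

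The groups did not overlap for 7 late genes with the mutants higher and for 1 with the mutants lower. Across all probe sets the shares were 10.3% and 14.1%. Beside Mp20, Actn and TpnC4, the genes with the mutants higher were TpnC73F, Mlp60A, Zasp52 and tn. Mlp60A, a muscle LIM protein and the brightest gene of the set, had 13.66, 13.71 and 13.78 in wild type and 14.05, 14.36 and 14.21 in the mutants (log2 change 0.49, SE 0.11, limma adjusted p = 0.0683). tn encodes a TRIM-family protein needed to keep muscle intact, and it had 9.87, 9.90 and 10.11 in wild type against 10.26, 10.86 and 10.68 in the mutants (log2 change 0.64, SE 0.17, limma adjusted p = 0.102). The dimmer probe sets of Mlp60A had log2 changes of 0.20 and −0.30, the second with every mutant array below every wild type array, and the mean over its 3 probe sets was 0.13 (limma adjusted p = 0.558). Neither Mlp60A nor tn passed, although Mlp60A passed with array weights (limma adjusted p = 0.012) and with trend and robust variance (0.0473). tn passed with array weights (0.0186) and without mutant replicate 1 (0.0329). The gene with the mutants lower was Act79B, an actin of adult muscle, at 6.32 to 6.40 in wild type and 6.19 to 6.30 in the mutants (log2 change −0.12, SE 0.09).

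**Figure D2:**
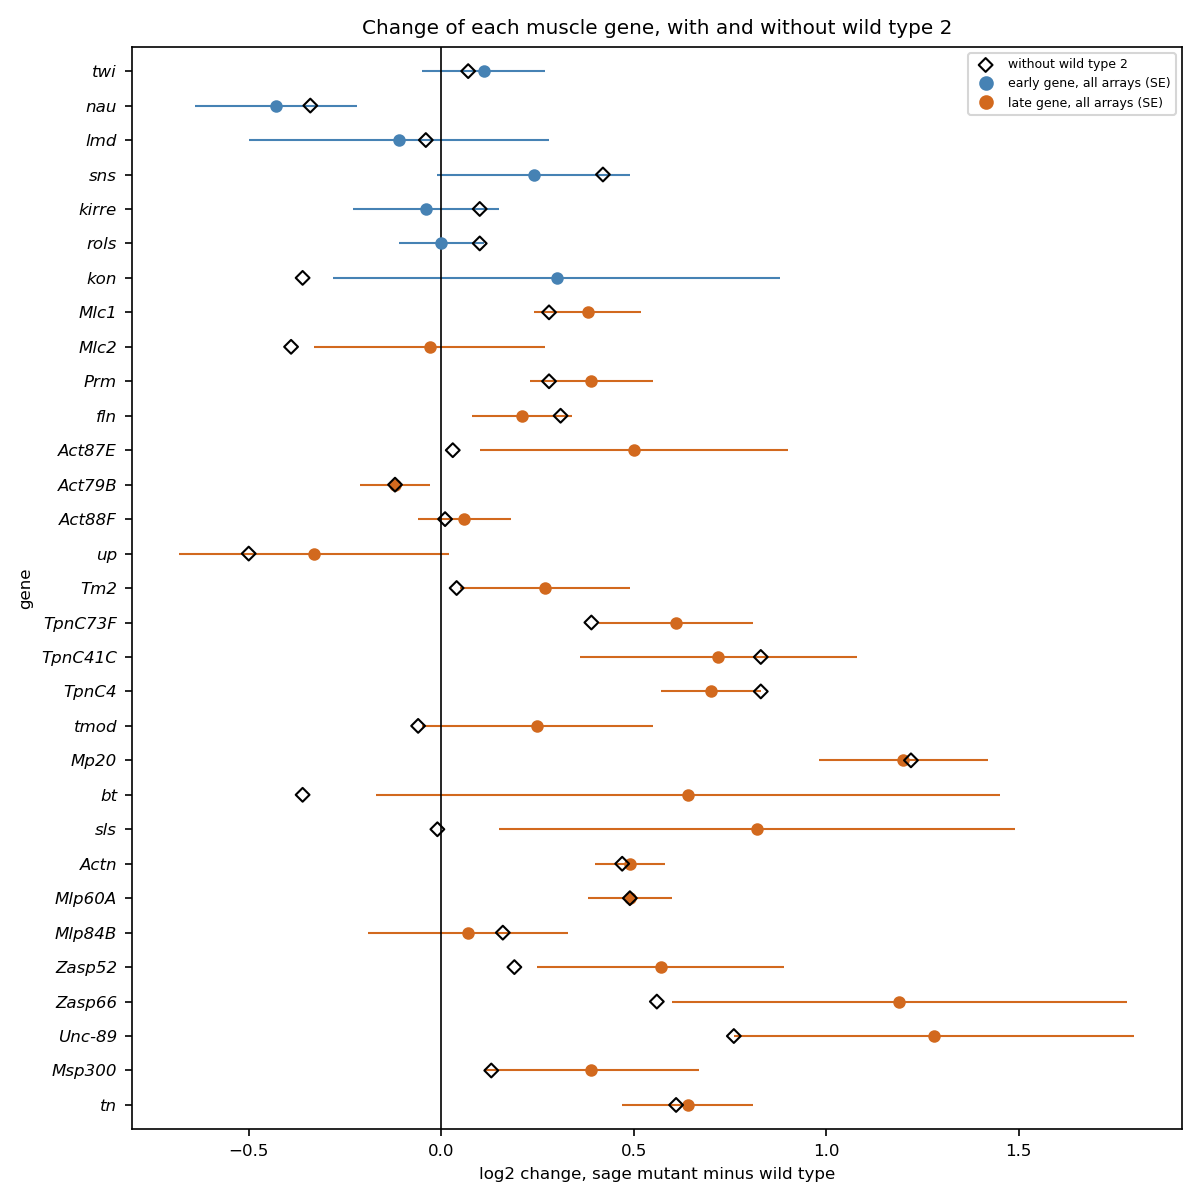
Log2 change of each muscle gene, sage mutant minus wild type, as a filled point with its standard error from the limma fit (early genes blue, late genes orange, 3 arrays per group). Open diamonds give the change without wild type 2, which moves bt from 0.64 to −0.36 and sls from 0.82 to −0.01 but leaves Mp20 at 1.22 and Actn at 0.47.

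None of the 4 measured thick filament genes passed limma, and Mlc1 and Prm stood higher at an unadjusted p under 0.05. Mlc1, the essential light chain of myosin, had a log2 change of 0.38 (SE 0.14), with a limma adjusted p = 0.226, from 13.29 ± 0.19 to 13.67 ± 0.18 (SD, n = 3 each). Prm, the paramyosin of the filament core, had 0.39 (SE 0.16, limma adjusted p = 0.266), and its second probe set had 0.45. Mutant replicates 2 and 3 exceeded all wild type arrays for Mlc1 and Prm, while mutant replicate 1 lay within the wild type range for both. Mlc2, the regulatory light chain, had a log2 change of −0.03 (SE 0.30), with wild type replicate 2 at 10.29 against 11.48 and 11.29 in replicates 1 and 3. The mutants had 10.94 to 11.09, and without wild type replicate 2 the log2 change was −0.39 (SE 0.11, limma adjusted p = 0.107). fln, which is known from adult flight muscle, was dim at 4.36 to 4.84 on all arrays.

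Of the 3 measured actin genes, Act87E was bright. It had 12.37, 11.19 and 12.81 in wild type and 12.37, 12.75 and 12.75 in the mutants, so that wild type replicate 2 was the lowest array by a wide margin. The log2 change was 0.50 (SE 0.40, limma adjusted p = 0.595), and 0.03 without that array. Fly actin genes are near-identical copies, and the name of the Act87E probe set marks probes that match several transcripts, so its signal may include other actins. The flight muscle actin gene Act88F had 5.29 to 5.63 on all arrays and a log2 change of 0.06 (SE 0.12). The probe sets of kirre, rols, Tm2, tmod, Mlp84B and tn are named as matching several transcripts too.

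The genes that regulate the thin filament varied in different ways. TpnC73F, a troponin C gene, had 11.46, 10.77 and 11.43 in wild type and 11.74, 11.81 and 11.95 in the mutants (log2 change 0.61, SE 0.20, limma adjusted p = 0.162). TpnC41C, another troponin C gene, had 6.93, 7.50 and 7.41 in wild type and 7.31, 8.75 and 7.94 in the mutants (log2 change 0.72, SE 0.36, limma adjusted p = 0.359). At their brightest probe sets all 3 measured troponin C genes thus had log2 changes between 0.61 and 0.72. They differed in spread, and only the dim TpnC4 passed. TpnC73F had a dim second probe set with a log2 change of 0.17 (SE 0.10), and the mean over its 2 probe sets had 0.39. up, which encodes troponin T, had the lowest log2 change of the late genes, at −0.33 (SE 0.35, limma adjusted p = 0.714). Its signals were 11.66, 11.16 and 11.65 in wild type and 10.35, 11.54 and 11.60 in the mutants, so that mutant replicate 1 alone set its direction, and the log2 change without that array was 0.08. The tropomyosin gene Tm2 and the pointed-end capping gene tmod had 0.27 (SE 0.22) and 0.25 (SE 0.30), which came to 0.04 and −0.06 without wild type replicate 2.

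The Z-disc and elastic filament genes held the largest spread. bt encodes projectin, a giant titin-like protein, and had 11.32, 8.47 and 11.62 in wild type against 11.50, 10.62 and 11.22 in the mutants. sls encodes the titin-like Sallimus, and had 9.84, 7.14 and 9.38 in wild type against 9.54, 9.37 and 9.90 in the mutants. Wild type replicate 2 was the lowest array for both genes, while the other wild type arrays lay among or above the mutants. The log2 changes of 0.64 (SE 0.81) and 0.82 (SE 0.67) became −0.36 and −0.01 without that array. For sls the low value recurred at all 3 probe sets, with wild type replicate 2 at 6.79 and 5.71 on the dimmer probe sets against at least 9.01 and 7.10 on the other wild type arrays. The probe sets of sls differed in the change itself. The one with 6.79 had 10.03, 9.65 and 10.13 in the mutants, above every wild type array, and its log2 change was 1.52 (SE 0.66) at a limma adjusted p = 0.283. Without wild type replicate 2 that probe set still had 0.71, which did not pass (limma adjusted p = 0.0918), while the third had 0.13 with all arrays and −0.35 without that one.

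Zasp66 and Unc-89 added a difference among the mutant arrays. Zasp66 encodes a PDZ protein of the Z-disc, and had 9.52, 7.68 and 9.61 in wild type against 9.30, 10.60 and 10.49 in the mutants. Unc-89, the fly obscurin of the M-line, had 6.46, 5.04 and 6.74 in wild type against 6.57, 7.70 and 7.81 in the mutants. At these probe sets of both genes mutant replicate 1 lay within the wild type range, while mutant replicates 2 and 3 lay above it. Their log2 changes of 1.19 (SE 0.59, limma adjusted p = 0.357) for Zasp66 and 1.28 (SE 0.52, limma adjusted p = 0.256) for Unc-89 were about as large as that of Mp20, but their SEs were wider and neither passed. Without wild type replicate 2 they were 0.56 and 0.76. The second bright probe set of Zasp66 had 8.65, 7.37 and 9.01 in wild type and 8.49, 9.81 and 9.82 in the mutants, in the same order of arrays but for mutant replicates 2 and 3. The dimmer probe set of Unc-89 lay between 4.46 and 4.83 on all arrays and showed none of this. The third probe set of Zasp66 was dim, with 4.23, 3.77 and 4.43 in wild type and 4.77, 4.89 and 4.94 in the mutants. There mutant replicate 1 too lay above every wild type array (log2 change 0.72, SE 0.18, limma adjusted p = 0.084).

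Zasp52, the related Z-disc gene, had 9.79, 8.59 and 9.68 in wild type and 9.83, 9.81 and 10.12 in the mutants (log2 change 0.57, SE 0.32, limma adjusted p = 0.419). The muscle LIM gene Mlp84B had signals of 10.81 to 11.61 in wild type and 11.07 to 11.73 in the mutants, with a log2 change of 0.07 (SE 0.26). Msp300, a nesprin that holds muscle nuclei, had 9.07, 8.37 and 9.19 in wild type and 8.99, 9.11 and 9.70 in the mutants (log2 change 0.39, SE 0.28, limma adjusted p = 0.542). It had 6 probe sets, with log2 changes from −0.32 to 0.47, none of which passed.

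Wild type replicate 2 was over 2-fold below both other wild type arrays for 6 of 24 late genes and 1 of 7 early genes, against 3.78% of all probe sets. These were Act87E, bt, sls, Zasp52, Zasp66 and Unc-89 among the late genes, and kon. It was the lowest wild type array for 16 of the 24 late genes, against 30.8% of all probe sets, and for 1 of the 7 early genes. Late genes in which it lay within 0.10 of the mean of the other wild type arrays were Mp20, Actn, Mlp60A, tn and Act79B. The control 5′ minus 3′ difference of wild type replicate 2 was −1.76, beside −1.88 and −1.89 in the other wild type arrays. No muscle gene was over 2-fold higher in it than in both other wild type arrays, and 0.160% of all probe sets were.

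**Figure D3:**
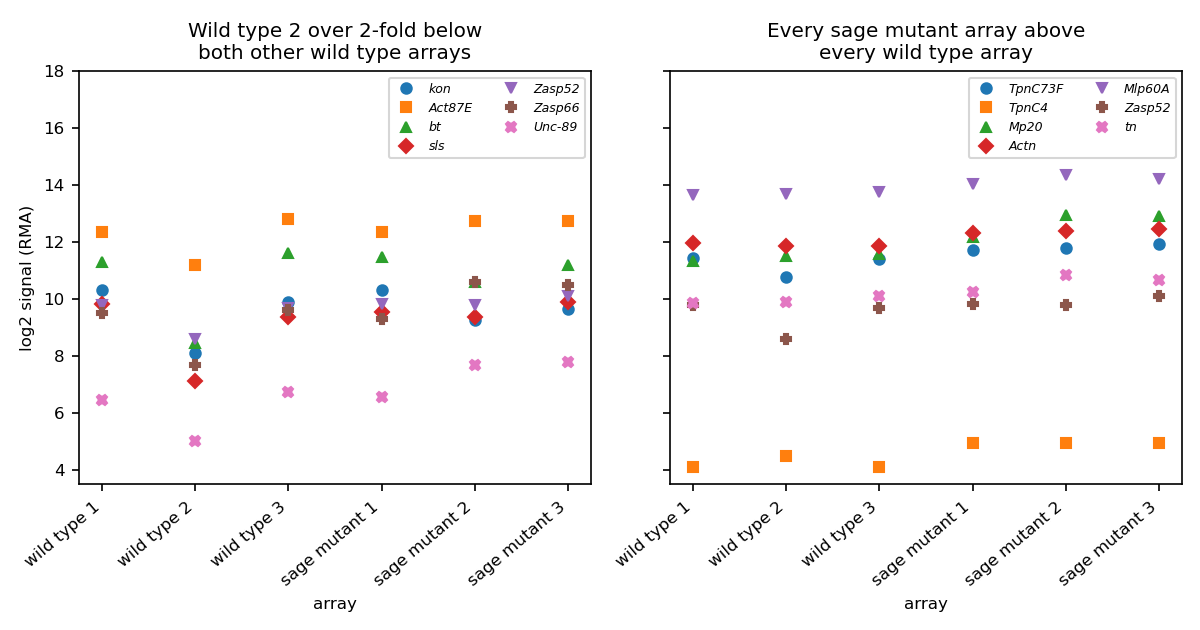
Log2 RMA signal by array for the 7 genes in which wild type 2 was over 2-fold below both other wild type arrays (left) and for the 7 genes in which every mutant array lay above every wild type array (right). Zasp52 is the gene present in both panels, and each symbol is 1 array. On the left the mutant arrays lie near wild type 1 and 3 for bt, sls and Act87E, and on the right Mp20, Actn and Mlp60A have wild type arrays close together and below the mutants.

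Seen by pairs of equal replicate number, the mutant array was the higher one in all 3 pairs for 12 of 24 late genes, against 19.1% of all probe sets, and for none of the 7 early genes. It was the lower one in all 3 pairs for Act79B among the late genes and nau among the early genes, against 26.0% of all probe sets. The 12 late genes were Mlc1, Prm, fln, TpnC73F, TpnC41C, TpnC4, Mp20, Actn, Mlp60A, Zasp52, Unc-89 and tn. Pair 2, which holds wild type replicate 2, had the largest difference for 9 of these 12, the exceptions being fln, TpnC4 and Actn. For Zasp52 and Unc-89 the pair 2 differences were 1.22 and 2.65, against 0.04 and 0.10 in pair 1.

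The balance of the classes was then computed for each array as the median over late genes minus the median over early genes, each gene taken relative to its mean over the 6 arrays. On the log2 scale it was −0.19, −0.69 and 0.21 in wild type and −0.24, 0.56 and 0.27 in the mutants. It averaged −0.22 ± 0.45 in wild type and 0.20 ± 0.41 in the mutants (SD, n = 3 each). Mutant replicate 1 lay inside the wild type range and wild type replicate 3 inside the mutant range, so the groups overlapped and the difference of 0.42 was smaller than the SD within wild type. Without wild type replicate 2 the difference between the same values was 0.19.

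The parts of the balance moved separately. The late median was −0.04, −0.49 and 0.03 in wild type and 0.00, 0.26 and 0.31 in the mutants, with the lowest value in wild type replicate 2 and the highest in mutant replicates 2 and 3. The early median was 0.15, 0.20 and −0.18 in wild type and 0.23, −0.29 and 0.04 in the mutants, with no order by group. All 7 early genes were above their own mean in mutant replicate 1, and 6 of 7 were below it in wild type replicate 3 and in mutant replicate 2. In mutant replicates 2 and 3, 20 and 21 of the 24 late genes were above their mean, while 21 of 24 were below it in wild type replicate 2.

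Genes of other tissues gave a second view of age. The early list held neuroblast, cell cycle and segmentation genes, 7 of 10 measured, and the late list cuticle, tracheal and synaptic genes, 12 of 13 measured. Their late minus early balance was −0.48, −0.07 and −0.06 in wild type and −0.28, 0.54 and 0.22 in the mutants. As with the muscle genes, mutant replicates 2 and 3 had the highest values and mutant replicate 1 lay inside the wild type range. Wild type replicate 2, lowest by the muscle genes, was not the lowest here. The mutant array had the higher value in all 3 pairs of equal number, and the means differed by 0.36, or by 0.43 without wild type replicate 2. The parts differed from those of the muscle balance. Here the early median differed by −0.22 between groups and the late median by 0.14, or by −0.35 and 0.08 without wild type replicate 2. For the muscle genes these differences were −0.06 (early) and 0.36 (late), or 0.01 and 0.20 without that array. By the muscle genes the mutant array had the higher balance in 2 of the 3 pairs. With all arrays neither list held a gene called by limma. At an unadjusted p under 0.05 the early list had none and the late list 3, Ddc, ple and serp, all higher. The share of all probe sets higher at that threshold was 9.25%. Of the 12 late genes 8 had a log2 change above 0 and 4 below. Without wild type replicate 2, limma called 2 late genes lower and no gene of either list higher. They were obst-A (log2 change −0.95, limma adjusted p = 0.013) and Gasp (−0.49, 0.0475), beside 2.70% of all probe sets called lower.

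**Figure D4:**
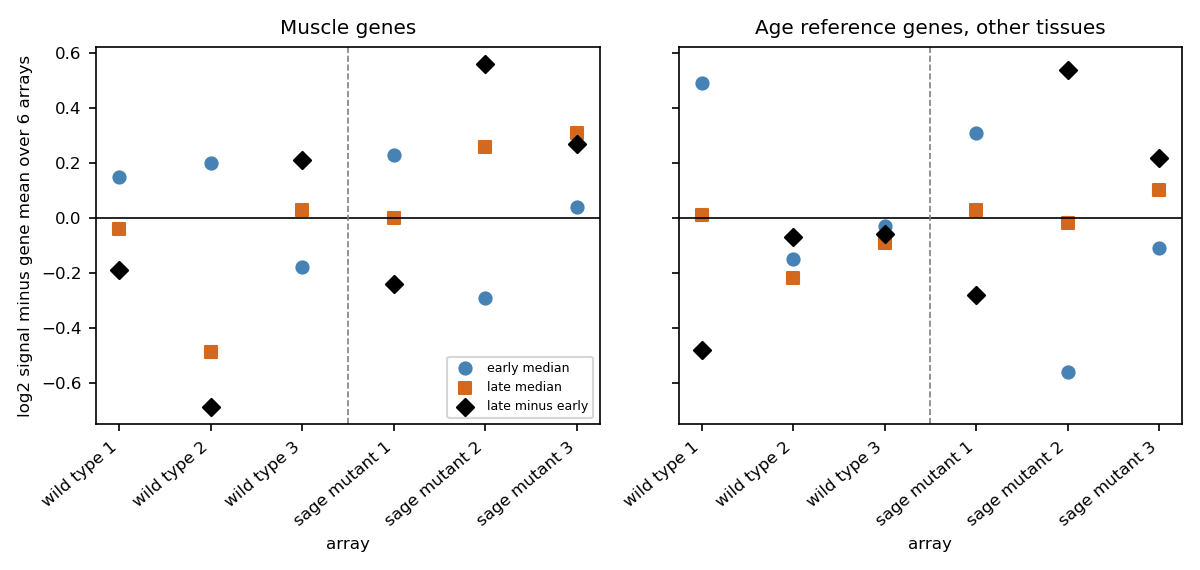
Median log2 signal relative to each gene's mean over the 6 arrays, for early genes (blue circles), late genes (orange squares) and their difference (black diamonds), per array, with muscle genes on the left and age reference genes of other tissues on the right. In both panels the difference is highest in sage mutant 2 (0.56 and 0.54), and sage mutant 1 (−0.24 and −0.28) lies within the wild type range.

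In 5 further lists of muscle genes, limma called 1 gene with all arrays. The shares of all probe sets at an unadjusted p under 0.05, 9.25% higher and 9.44% lower, are the background for the counts that follow. Of 15 measured mesoderm and founder identity genes limma called none, 1 stood higher and 1 lower at an unadjusted p under 0.05, and the list had a median log2 change of 0.08. Of 9 further fusion genes none passed, with 1 higher and 1 lower unadjusted and a median of −0.03. Of 6 further sarcomere genes none passed, with 3 higher and 1 lower unadjusted, 5 above 0 and a median of 0.23. Among the 3 was Mf, myofilin of the thick filament, named here after its values were seen, which did not pass (limma adjusted p = 0.19) at a log2 change of 0.97 (SE 0.34). Of 9 genes of excitation and calcium handling none passed, with 1 higher and 2 lower unadjusted and a median of 0.04. Of 19 muscle attachment genes, 1 rose and none fell, with 4 higher and 3 lower unadjusted. Their median was 0.04, and without wild type replicate 2 it was −0.20, with 12 of 19 below 0. The gene that rose was if, the integrin α subunit that muscle uses at its tendon junctions, with 9.40, 9.42 and 9.32 in wild type and 10.04, 10.21 and 10.19 in the mutants (log2 change 0.77, SE 0.09, limma adjusted p = 0.0123). Without wild type replicate 2, if was again called higher (limma adjusted p = 0.0154), and the attachment gene sr was called lower (log2 change −1.28, 0.0143). The founder identity gene zfh1 (−1.18, 0.0368) and Argk1 of the excitation list (−0.56, 0.0476) were called lower too. In that fit 3.22% of all probe sets were called higher and 2.70% lower.

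Markers of other tissues differed in places beside these muscle values, and their part in them was not tested. Of 4 measured midgut markers 1 rose, alphaTry. The log2 changes were 1.44 for alphaTry, 1.56 for betaTry, 0.16 for mex1 and −0.25 for GATAe, with a median of 0.80. With the replicate number as a block alphaTry did not pass (limma adjusted p = 0.0595) and betaTry did (0.0483). Of 5 hemocyte markers NimC1 rose and Pxn fell. With all arrays limma called none of the 5 nervous system, 4 trachea, 4 epidermis and 4 heart markers. Without wild type replicate 2 it called repo of the nervous system (log2 change −0.76, limma adjusted p = 0.0426) and Gasp of the trachea lower. With all arrays and an unadjusted p under 0.05, the nervous system, trachea, epidermis and heart lists held 1, 1, 2 and 0 genes. The share of all probe sets in either direction was 18.7%. The trachea and epidermis lists share serp, verm, Gasp, Ddc, ple and kkv with the late age list. Their genes at that threshold, serp, Ddc and ple, are the ones already counted there. The midgut median relative to the gene means was between −0.56 and −0.40 in wild type and between 0.05 and 0.63 in the mutants. The nervous system median was lowest in wild type replicate 2, at −0.35, and the heart median lay between −0.05 and 0.27 in wild type and between −0.43 and 0.14 in the mutants.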

How the data were processed

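Log2 signals per probe set were deposited by the authors, 1 column per array. RMA and Partek are the tools named in, and credited here per, the submitters' processing notes, and their versions are not stated there. RMA gives log2 values by default, and the deposited log2 signals ran up to 14.88. Of 18952 rows, 183 control probe sets were left out of the test. Gene names came from the platform annotation, updated through RefSeq (Release 6 plus ISO1 MT), and 13647 of 18769 probe sets named 1 gene.

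Every probe set was fitted on group alone by lmFit and eBayes of limma (3.58.1, under R 4.3.3), and p-values were adjusted by Benjamini-Hochberg over all 18769. The steps were tested on simulated data. The 6 arrays held no identical pair. The labels do not say whether replicates were collected separately, so the spread behind the p-values may be technical. Every measured member was named, and of other lists up to 6 genes past an adjusted p of 0.05. Genes of the other lists called lower without wild type replicate 2 were named as well. Members and lists were chosen with earlier results of these data known, and the 2-fold comparison of wild type replicate 2 was chosen after its values were seen.

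The groups share replicate numbers in the sample titles. Deviations from group means correlated at 0.17, 0.28 and 0.31 for equal numbers and between −0.30 and 0.14 for others. Deviations offset each other within a group, so these correlations are not independent and are weak evidence of pairing. The numbers were treated as a possible pairing, and a fit with the number as a block was run beside the main one.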

Additional observations from a re-analysis of the deposited data

How the results depend on the processing

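No early gene was called higher or lower under any alternative, and no late gene was called lower. The late genes called higher numbered 3. Under 4 settings 1 was called, and that was Mp20: median centring, leaving out probe sets with a mean under 5, keeping the brighter ones alone, and the replicate block. With array weights 5 were called, while the late median was 0.31 in place of 0.49. The weights of wild type replicates 1, 2 and 3 were 3.97, 0.27 and 0.95, so replicate 1 dominated the wild type mean in that fit. In a fit that took the 5′ to 3′ control difference as a term, limma called 0 late genes and 0 of all probe sets (0 higher, 0 lower), with 5 late genes and 1613 probe sets at an unadjusted p under 0.05. That fit gave medians of −0.62 (early) and 0.77 (late), and the values of its added term did not overlap between the groups. Array weights gave 2737 changed probe sets, 1507 higher and 1230 lower, in place of 757, 394 and 363. The replicate block ended the calls of Actn and TpnC4 and no other call among the muscle genes, with 641 probe sets changed.

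Leaving out 1 array at a time gave 134 to 1111 changed probe sets, 69 to 624 higher and 62 to 507 lower. Late genes called higher numbered 0 to 2, with 0 when wild type 1, wild type 3, mutant 2 or mutant 3 was left out. In those fits 5 to 9 of the 24 late genes stood higher at an unadjusted p under 0.05. Between 2356 and 3313 of all 18769 probe sets stood at that threshold in either direction. With each array left out in turn, the early median lay between −0.05 and 0.23 and the late median between 0.23 and 0.53. The late minus early difference between groups, recentred on the arrays left in, lay between 0.25 and 0.65.

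The sign changed for 13 genes, none of them called. After centring, rols had −0.06 and Act88F −0.01. With array weights kirre had 0.04, kon −0.38, Act88F −0.07, tmod −0.13 and bt −0.07. In the fit with the control difference twi had −0.19, sns −0.62, rols −0.11, kon −1.35, Act88F 0.00, up 1.60, tmod −0.78 and bt −0.73. With the mean of all probe sets kirre had 0.01. Leaving out 1 array gave −0.56 to 0.23 for lmd, −0.18 to 0.10 for kirre, −0.05 to 0.10 for rols, −0.36 to 0.73 for kon, −0.39 to 0.21 for Mlc2, −0.03 to 0.13 for Act88F, −0.55 to 0.08 for up, −0.06 to 0.48 for tmod, −0.36 to 1.22 for bt, −0.01 to 1.34 for sls and −0.17 to 0.23 for Mlp84B. The cause was not tested. Signal over background limits TpnC4, fln and Act88F.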
